A study of Homo sapiens with 4 samples.

Results

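Secreted proteases and the proteins that hold them in check were followed in 2 human bladder cancer cell lines in which the desaturase SCD1 had been knocked down. The set has 10 genes of the 32485 in the deposited tables: the matrix metalloproteinase genes MMP1, MMP2 and MMP14, the inhibitor genes TIMP1, TIMP2 and TIMP3, the urokinase gene PLAU with its receptor gene PLAUR, the carboxypeptidase gene CPA4 and the trypsin inhibitor gene SPINK1. They were matched by gene name, or by Ensembl identifier where a table gave no name. CPA4, SPINK1 and MMP2 were chosen by their measured shSCD1 to shNT ratios in these libraries and the others by their role, so the values are a description and no test was made within a line. All 10 were in the SW780 table and 9 were in the UMUC3 table, where SPINK1 was not analysed here.

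RNA sequencing gave 1 library in each of 4 groups: SW780 cells with SCD1 knocked down by lentivirus (shSCD1), SW780 cells labelled shNT with the genotype WT, UMUC3 shSCD1 cells and UMUC3 shNT cells. SW780 was grown in DMEM and UMUC3 in MEM, so line and medium cannot be told apart, and the labels do not say how many hairpins, clones or cultures a library came from. With 1 library per group there is no replicate spread, and "higher" and "lower" describe these libraries. In the headers the libraries are only numbered. The one numbered second was taken to be shSCD1, since the tables bear that name and their fold changes divide it by the other, and with the columns in the opposite order every direction in a line would turn round. Levels are CPM, the reads of a gene scaled to one common total per library, with sequenced totals between 22818368 and 34087871 reads over the genes of each table. The tables were normalized separately over different sets of genes, a limit on every level set across lines. The log2 ratio is log2((shSCD1 CPM + 1)/(shNT CPM + 1)), which understates the change of weakly expressed genes, and the fold is the plain ratio of CPM with a 95% Clopper-Pearson interval that covers counting error only. A gene passed the 2-fold rule when its log2 ratio reached 1 or −1 and it had 1 CPM or more in either library of the line. SCD, the gene of SCD1, stood at 92.1 CPM in the shSCD1 library and 592 CPM in the shNT library of SW780, and at 59.6 and 264 CPM in those of UMUC3.

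The labelled tissue was visible in one line more than in the other. SW780 expressed 7 of 9 urothelial markers at 1 CPM or more, with a summed level of 813 CPM in the shSCD1 library and 1078 CPM in the shNT library. UMUC3 had 3 of these 9, with a summed level of 14.3 and 11.7 CPM in the shSCD1 and shNT libraries, and UPK1B, a uroplakin gene, was at 0 reads in both. Vimentin (VIM) reached 2254 and 2794 CPM in the UMUC3 libraries. As these are bulk samples, fewer cells of a type and less RNA per cell cannot be told apart.

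Matrix metalloproteinases are zinc endopeptidases that are made as inactive precursors and cut collagens and other proteins outside the cell. MMP14 stays anchored in the membrane and, together with TIMP2, activates the precursor of the gelatinase MMP2; TIMP1, TIMP2 and TIMP3 block the active enzymes. Urokinase, bound to its receptor, turns plasminogen into plasmin, a broad serine protease. CPA4 belongs to the metallocarboxypeptidases that trim amino acids from the carboxyl end of proteins, and SPINK1 is a small secreted Kazal inhibitor of trypsin that was described first in the pancreas.

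CPA4 (ENSG00000128510, chromosome 7 from 130293134 to 130324180, plus strand, GRCh38, GENCODE 29) and SPINK1 (ENSG00000164266, chromosome 5 from 147824568 to 147831786, minus strand) had the lowest ratios of the set. The bases before their starts are shown with those of PLAUR because CPA4 and PLAUR were the members in that table with a match to the AP-1 motif and SPINK1 had the other large ratio without one. They come from RefSeq (GRCh38.p14), in which 7 of the 10 members were matched; MMP1, MMP2 and TIMP2 were not. The CPA4 stretch is chr7:130292911-130293160 on the plus strand, the PLAUR stretch chr19:43670170-43670419 on the minus strand and the SPINK1 stretch chr5:147831672-147831921 on the minus strand. Each runs 5′ to 3′ over the 250 bases that end just before the RefSeq start, and capitals mark matches, on either strand, to an AP-1 and a TATA motif. These RefSeq starts differ from the GENCODE gene starts given here: the PLAUR stretch lies inside the GENCODE gene, and those of SPINK1 and CPA4 run into it.
CPA4: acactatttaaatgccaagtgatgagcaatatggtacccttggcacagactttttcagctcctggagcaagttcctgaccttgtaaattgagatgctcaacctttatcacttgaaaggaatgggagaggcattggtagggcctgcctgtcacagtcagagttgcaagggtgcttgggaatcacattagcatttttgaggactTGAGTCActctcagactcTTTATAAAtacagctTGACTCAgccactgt
PLAUR: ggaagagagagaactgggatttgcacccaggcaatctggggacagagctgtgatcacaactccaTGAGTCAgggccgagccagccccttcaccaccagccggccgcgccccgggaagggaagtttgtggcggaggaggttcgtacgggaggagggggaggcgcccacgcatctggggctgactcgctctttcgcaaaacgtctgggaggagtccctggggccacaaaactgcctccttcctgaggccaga
SPINK1: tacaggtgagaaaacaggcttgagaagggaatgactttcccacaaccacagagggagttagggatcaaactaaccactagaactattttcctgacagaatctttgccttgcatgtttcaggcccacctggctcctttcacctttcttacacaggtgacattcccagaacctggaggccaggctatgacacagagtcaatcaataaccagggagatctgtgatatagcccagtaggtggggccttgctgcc

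The AP-1 motif searched was TGANTCA. For the TATA box it was TATAAA. CPA4 held 2 AP-1 matches, which begin 48 and 15 bases before the start, and 2 overlapping TATA matches between them, which begin 30 and 28 bases before it. PLAUR held 1 AP-1 match, 186 bases before the start. Of 35116 RefSeq promoters of this length, 6.57% held an AP-1 match and 10.7% a TATA match. MMP14, TIMP1, TIMP3, PLAU and SPINK1 held neither. The GC box GGGCGG, present in 42.6% of all promoters, was found 5 times before TIMP3, 2 times before TIMP1, 1 time before MMP14 and 3 times before 1 of the 2 starts listed for PLAU, and not before CPA4, PLAUR or SPINK1. A match is a description of letters and says nothing of binding.

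CPA4 had 86.3 CPM in the SW780 shSCD1 library and 58.2 CPM in the SW780 shNT library, from 2204 and 1985 reads. In UMUC3 it had 3.66 CPM in the shSCD1 library and 59.2 CPM in the shNT library, from 119 and 1351 reads. The shNT libraries of the lines were thus within 2 CPM of each other, and the shSCD1 libraries stood on opposite sides of them. In SW780 the fold was 1.48 (95% interval 1.39 to 1.57), with a log2 ratio of 0.56 that did not pass the 2-fold rule. In UMUC3 the log2 ratio was −3.69, the 7th lowest of 14063 genes with at least 1 CPM. CPA4 was therefore the member with the widest gap between lines, at 4.25 on the log2 scale for SW780 minus UMUC3.

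SPINK1 had 1.02 CPM in the SW780 shSCD1 library and 12.5 CPM in the SW780 shNT library, from 26 and 426 reads. Its log2 ratio of −2.74 was the 8th lowest of 12880 genes with at least 1 CPM in SW780. With a pseudocount of 5 CPM this ratio was −1.54, and in the authors' deposited table −3.56. The pancreatic enzymes against which SPINK1 is known to act were near 0 in the same libraries. The trypsinogen gene PRSS1 had 6 and 4 reads in shSCD1 and shNT, PRSS2 had 0 and 3 reads, and the 6 acinar markers together had 0.352 and 0.381 CPM.

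**Figure D1:**
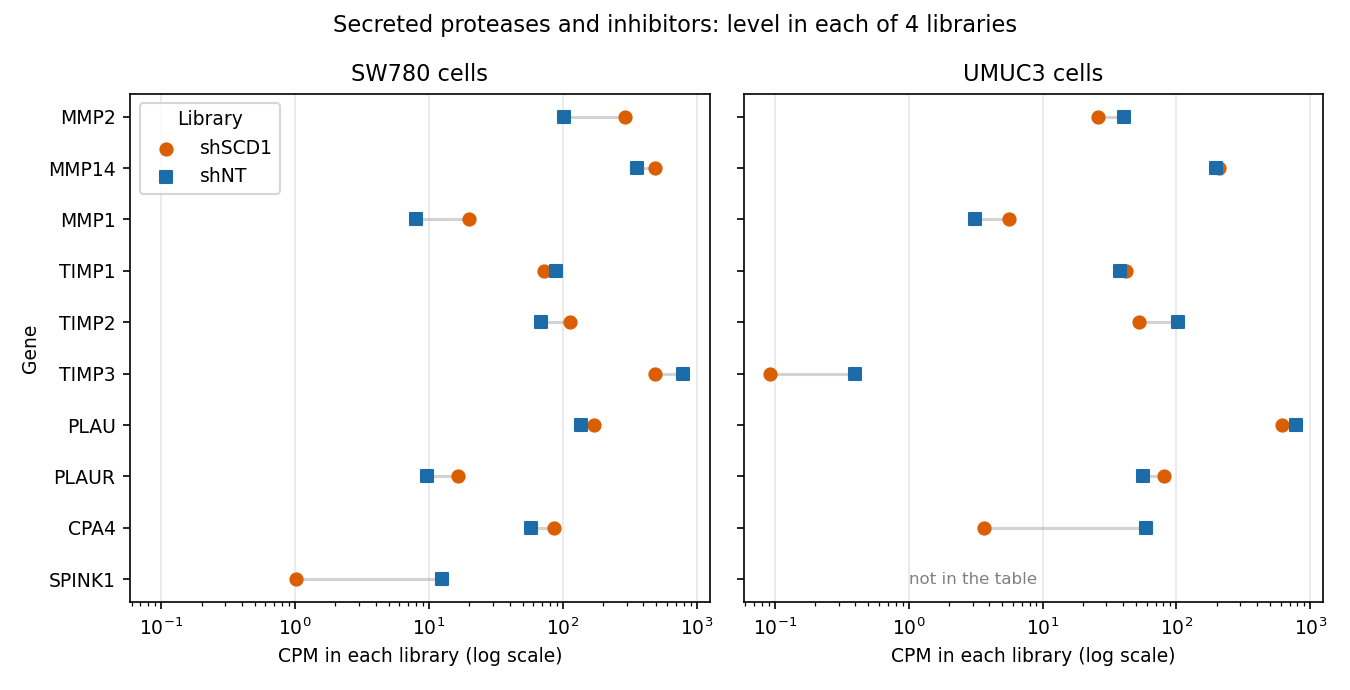
Level of each of the 10 genes in CPM on a log axis, with SW780 in the left panel and UMUC3 in the right; circles are the shSCD1 library and squares the shNT library of a line, 1 library each. The circle and the square stand farthest apart for SPINK1 in SW780 (1.02 and 12.5 CPM) and CPA4 in UMUC3 (3.66 and 59.2 CPM), and SPINK1 has no point in UMUC3.

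Of the 3 metalloproteinases, MMP2 and MMP1 passed the 2-fold rule as higher in SW780, MMP14 did not, and none passed in UMUC3. MMP2 (ENSG00000087245, chromosome 16 from 55389700 to 55506691, plus strand) encodes a secreted gelatinase and shares 3.53% of its exonic bases with AC007336.3 on the same strand. In SW780 it had 292 CPM in shSCD1 and 102 CPM in shNT, from 7458 and 3463 reads. That is a fold of 2.87 (2.76 to 2.99), and 63 of 12880 genes had a ratio at least as high. In UMUC3 it had 26.2 CPM in shSCD1 and 40.8 CPM in shNT, a fold of 0.642 (0.584 to 0.705). On the log2 scale the ratio was 1.51 in SW780, past the 2-fold rule, and −0.62 in UMUC3, short of it and of opposite sign.

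MMP1 (ENSG00000196611, chromosome 11 from 102789920 to 102798160, minus strand), the interstitial collagenase, was higher in the shSCD1 library of both lines. It had 19.8 CPM in shSCD1 and 7.95 CPM in shNT of SW780, a fold of 2.50 (2.15 to 2.90). In UMUC3 it had 5.59 and 3.16 CPM in shSCD1 and shNT, from 182 and 72 reads, a fold of 1.77 (1.34 to 2.36) and a log2 ratio of 0.67, or 0.38 with a pseudocount of 5 CPM. The fold intervals of the lines overlap. MMP1 was the only member outside the 3 chosen ones that passed the 2-fold rule, in SW780, with a log2 ratio of 1.22, or 0.94 with a pseudocount of 5 CPM. WTAPP1 on the other strand overlaps 7.61% of the exonic bases of MMP1, and whether counting used strand is not given in the sources used here.

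MMP14 (ENSG00000157227, chromosome 14 from 22836557 to 22849027, plus strand), the membrane-anchored enzyme, had the highest level of the 3 metalloproteinases in SW780, also per length of exon. It had 484 CPM in shSCD1 and 359 CPM in shNT of SW780, a fold of 1.35 (1.32 to 1.38). In UMUC3 the libraries lay close together, with 207 CPM in shSCD1 and 196 CPM in shNT, a fold of 1.05 (1.01 to 1.09). The log2 ratio of 0.07 in UMUC3 is −0.01 in the authors' deposited table, so MMP14 had no direction there that held under both scalings.

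Summed markers of mesenchymal cells and fibroblasts were higher beside MMP2 in SW780 shSCD1, and their part in the result was not tested. The 4 of 5 mesenchymal markers with at least 1 CPM were all above 0 in log2 ratio, with summed levels of 879 CPM in shSCD1 and 374 CPM in shNT. The 12 fibroblast markers summed to 382 and 243 CPM in shSCD1 and shNT. Among these COL3A1 made up 203 and 139 CPM, while THY1, PDGFRB, DCN and COL1A2 were at 0 reads in both SW780 libraries. In UMUC3, where MMP2 was lower, the 5 mesenchymal markers summed to 2559 and 3116 CPM in shSCD1 and shNT, and the fibroblast markers to 14.0 and 20.8 CPM. Of the mesenchymal sums VIM made up 2254 and 2794 CPM. SNAI2 passed the rule as lower there, and ZEB1 had 242 and 233 CPM. Epithelial markers summed to 249 and 524 CPM in UMUC3 shSCD1 and shNT, with KRT18 and KRT7 past the 2-fold rule as lower, KRT19 at 0 reads, and EPCAM and CDH1 not in that table. In SW780 the 6 epithelial markers summed to 9570 and 11527 CPM, and none passed the rule.

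**Figure D2:**
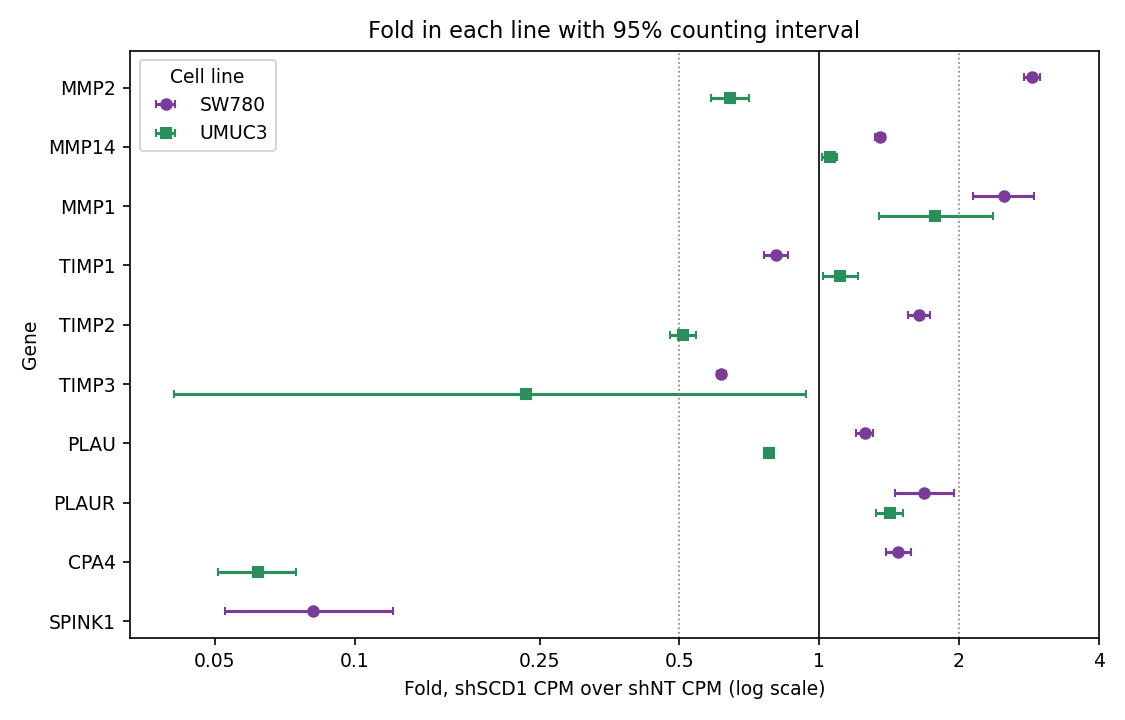
Fold of shSCD1 over shNT CPM on a log axis for each gene, with circles for SW780, squares for UMUC3 and bars for the 95% interval of counting error; dotted lines mark 2-fold and the solid line a fold of 1. MMP2, TIMP2, PLAU and CPA4 sit right of 1 in SW780 and left of it in UMUC3, TIMP1 does the reverse, and the UMUC3 bar of TIMP3 is wide because it rests on 3 and 9 reads.

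The TIMP genes differed in direction in SW780, and in UMUC3 only through TIMP1, whose direction there is weakly held. TIMP3 (ENSG00000100234, chromosome 22 from 32801701 to 32863043, plus strand), the inhibitor that binds to the matrix, had 490 CPM in shSCD1 and 795 CPM in shNT of SW780. That is a fold of 0.616 (0.603 to 0.629), and 2.53% of genes had a ratio as low. In UMUC3 it was all but absent, with 3 reads in shSCD1 and 9 reads in shNT, a fold of 0.234 with an interval from 0.0407 to 0.937. Of the 9 members in both tables, TIMP3 had the widest difference in level between the lines.

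TIMP2 (ENSG00000035862, chromosome 17 from 78852977 to 78925387, minus strand), which both inhibits metalloproteinases and serves as the adaptor for MMP2 activation, followed MMP2 in direction. It had 113 CPM in shSCD1 and 68.7 CPM in shNT of SW780, a fold of 1.64 (1.55 to 1.73). In UMUC3 it had 52.3 CPM in shSCD1 and 103 CPM in shNT, a fold of 0.509 (0.478 to 0.542). Its log2 ratio of −0.96 in UMUC3 lay just outside the 2-fold rule (−1.06 in the authors' deposited table), whereas MMP1 in SW780 at 1.22 was the member just inside it. Exons of other genes, CEP295NL on the same strand among them, cover 10.0% of the exonic bases of TIMP2.

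TIMP1 (ENSG00000102265, chromosome X from 47582313 to 47586789, plus strand), the soluble inhibitor, had the smallest log2 ratios of the inhibitors. It had 71.9 CPM in shSCD1 and 89.1 CPM in shNT of SW780, a fold of 0.807 (0.761 to 0.855). UMUC3 had 42.0 and 37.8 CPM in shSCD1 and shNT, a fold of 1.11 (1.02 to 1.21). On the CPM scale used here both fold intervals exclude 1, and the spread between cultures is not known. In UMUC3 the authors' deposited log2 fold change of TIMP1 was 0.07. Their GFOLD value, a cautious log2 fold change, was 0 there, so the direction in UMUC3 is weakly held.

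Levels of different genes can be set side by side only per length, so CPM was divided by the kilobases (kb) of exon of each gene. On that scale MMP14 and TIMP3 led the SW780 shSCD1 library with 108 and 106 CPM per kb, a gap of about 2 CPM per kb. In the SW780 shNT library TIMP3 led with 173 CPM per kb and MMP14 followed with 80.4. MMP2 stood at 59.2 CPM per kb in SW780 shSCD1 and at 20.6 in SW780 shNT. UMUC3 was led by PLAU, with 209 CPM per kb in shSCD1 and 267 in shNT, and MMP14 came next with 46.3 and 44.0. At the low end of UMUC3 were TIMP3 in both libraries and CPA4 in shSCD1, with 0.924 CPM per kb against 14.96 in shNT.

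The summed level of MMP1, MMP2 and MMP14 was 178 CPM per kb in SW780 shSCD1 and 105 in SW780 shNT. Over the 3 TIMP genes the sums were 173 and 243 CPM per kb. Metalloproteinase transcripts were therefore 1.03 times the TIMP transcripts in SW780 shSCD1 and 0.433 times in SW780 shNT. Of the metalloproteinase sums MMP2 made up 59.2 CPM per kb in SW780 shSCD1 and 20.6 in SW780 shNT. As MMP2 was chosen by its measured ratio, the shift in this quotient was in part set by that choice. In UMUC3 the same quotient was 1.49 in shSCD1 and 1.26 in shNT. These are RNA levels, and neither protein nor enzyme activity was measured.

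**Figure D3:**
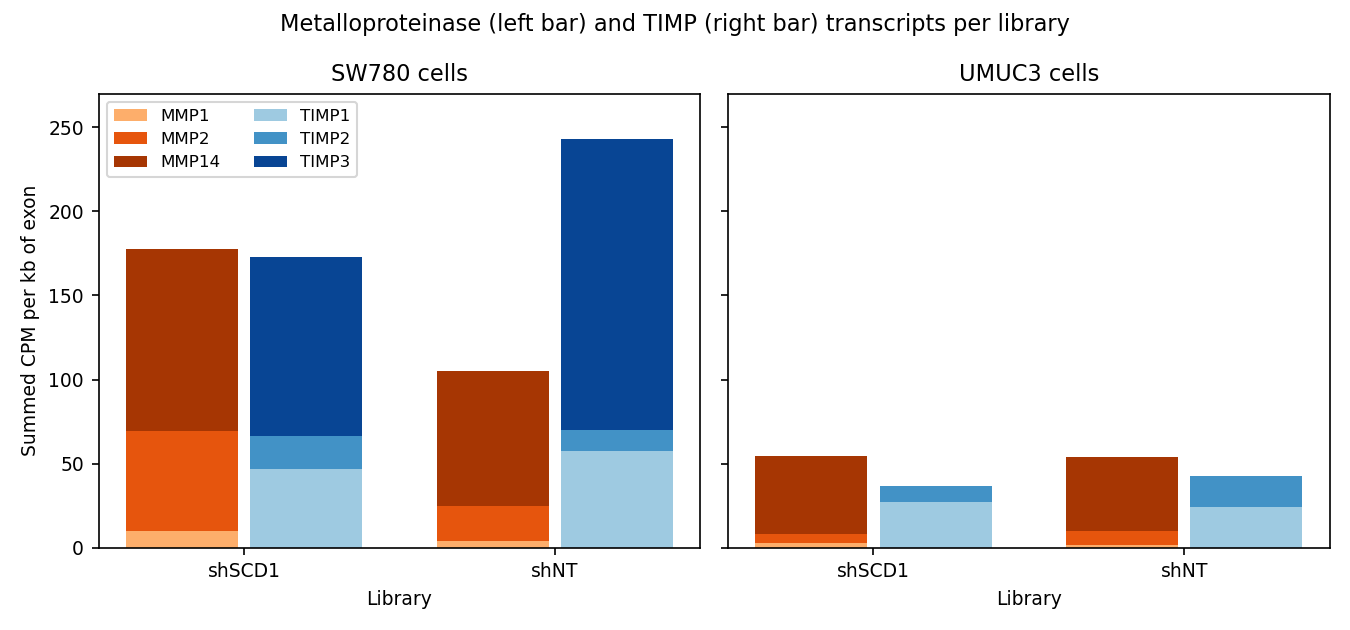
Summed CPM per kb of exon in each library, with the 3 metalloproteinases stacked in the left bar and the 3 TIMP genes in the right bar of a pair; SW780 is the left panel, UMUC3 the right, and shSCD1 stands left of shNT. The bars are level in SW780 shSCD1 (178 and 173) and unequal in SW780 shNT (105 and 243), where TIMP3 makes up most of the TIMP bar. MMP2, a part of the left bar, was chosen by its measured ratio.

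For MMP14, TIMP2 and MMP2, which act together in activation, quotients were taken over TIMP2. MMP2 transcripts per kb were 2.96 times those of TIMP2 in SW780 shSCD1 and 1.69 times in SW780 shNT. The quotient of MMP14 to TIMP2 was 5.42 and 6.59 in the same libraries. In UMUC3 MMP2 was at 0.571 times TIMP2 in shSCD1 and 0.453 times in shNT, and MMP14 at 4.99 and 2.41 times. As TIMP2 itself differed between the libraries of each line, the quotients alone do not show which partner differed. The folds of shSCD1 over shNT in SW780 were 2.87 for MMP2, 1.35 for MMP14 and 1.64 for TIMP2. In UMUC3 they were 0.642, 1.05 and 0.509, in the same order.

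In the plasminogen system the receptor gene was higher in both shSCD1 libraries, and the urokinase gene in that of SW780 alone. PLAU (ENSG00000122861, chromosome 10 from 73909177 to 73917497, plus strand) had 172 CPM in shSCD1 and 137 CPM in shNT of SW780, a fold of 1.25 (1.202 to 1.31). In UMUC3 it had 616 and 789 CPM in shSCD1 and shNT, a fold of 0.781 (0.765 to 0.797). Exons of C10orf55 on the opposite strand cover 31.1% of the exonic bases of PLAU, so part of its reads could belong to that gene if strand was not used.

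PLAUR (ENSG00000011422, chromosome 19 from 43646095 to 43670547, minus strand) had 16.4 CPM in shSCD1 and 9.71 CPM in shNT of SW780, a fold of 1.68 (1.46 to 1.95). In UMUC3 it had 80.6 and 56.8 CPM in shSCD1 and shNT, a fold of 1.42 (1.33 to 1.52). The intervals overlap between the lines. Per kb, PLAU exceeded PLAUR 15.9 times in SW780 shSCD1 and 21.3 times in SW780 shNT, and 11.6 and 21.0 times in UMUC3 shSCD1 and shNT. The place of PLAUR in the order of levels rests on its length, which is 4457 bases as the union of exons and 1610 bases as the longest coding transcript. PLAUR was thus higher relative to PLAU in the shSCD1 library of each line, whichever length is used, as length cancels from that change.

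Counted over the set, all 10 members had at least 1 CPM in SW780, of which 2 were higher (MMP2 and MMP1) and 1 lower (SPINK1) by the 2-fold rule. The rule took 2.54% of all 12880 genes of SW780, 1.48% as higher and 1.06% as lower. In UMUC3 8 members had at least 1 CPM and 1 was lower (CPA4), where the rule took 4.64% of all 14063 genes, 2.47% as higher and 2.18% as lower. In SW780 7 members lay above 0 and 3 below, against 48.5% and 51.5% of all genes, and in UMUC3 4 above and 4 below, against 54.3% and 45.7%. Since 3 members were chosen for these ratios, nothing is read from the counts. The median log2 ratio of the members was 0.50 in SW780 and −0.14 in UMUC3, against −0.01 and 0.04 over all genes. MMP1, MMP14 and PLAUR were above 0 in both lines, TIMP3 was below 0 in both (under 1 CPM in UMUC3), and the remaining 5 members in both tables lay on opposite sides. Of 11152 genes with at least 1 CPM in both lines, 8 members among them, 48.4% had opposite signs, and 20.1% also had both counting intervals clear of a fold of 1. CPA4 and MMP2, of the 5, were chosen by their ratios, so nothing is read from this count either.

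**Figure D4:**
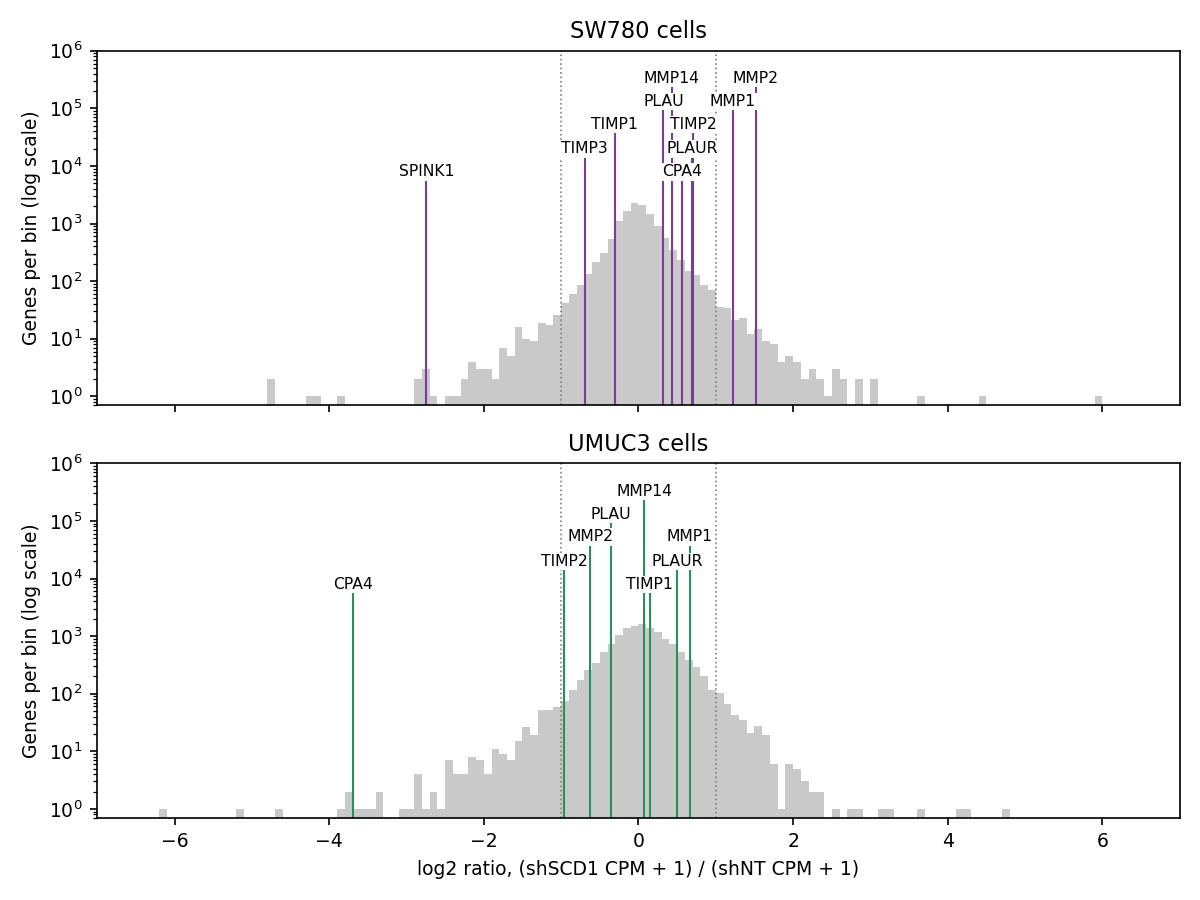
Number of genes in each bin of log2 ratio (log axis) for the genes with at least 1 CPM, with SW780 above and UMUC3 below; vertical lines mark the members and dotted lines the 2-fold rule. CPA4 in UMUC3 (−3.69) and SPINK1 in SW780 (−2.74) stand in the far left tail. MMP2 and MMP1 pass the right dotted line in SW780 only, and the other members lie between the dotted lines.

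The other genes of extracellular proteolysis were taken from 9 lists with 189 genes. These lists were chosen with earlier results of these data known, so nothing is read from their counts. In SW780 101 of them had at least 1 CPM, with 12 higher and 3 lower by the 2-fold rule, which took 1.48% and 1.06% of all genes, and a median log2 ratio of 0.12. With a pseudocount of 5 CPM 5 were higher and 2 lower. In UMUC3 74 had at least 1 CPM, with 2 higher and 4 lower, against 2.47% and 2.18% of all genes, and a median of −0.10. With a pseudocount of 5 CPM 1 was higher and 2 lower. By the authors' deposited log2 fold change, 6 were higher and 6 lower among the same 74.

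Of the listed metalloproteinases, 9 had 1 CPM or more in SW780, where the rule took 2.54% of all genes, and MMP13 passed it. This collagenase had 53.2 CPM in shSCD1 and 24.1 CPM in shNT, a fold of 2.21 (2.02 to 2.41), and 0 reads in either UMUC3 library. The highest one, MMP28, had 98.3 and 110 CPM in shSCD1 and shNT of SW780. None of the 7 measured in UMUC3 passed the rule, which took 4.64% of all genes there. The membrane-type enzyme gene MMP16 led them with 68.7 CPM in shSCD1 and 41.1 CPM in shNT.

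Among ADAM and ADAMTS proteases, 3 of 14 were higher in SW780 and none lower, against 1.48% and 1.06% of all genes. ADAM19, a membrane-bound sheddase, had 222 CPM in shSCD1 and 63.9 CPM in shNT, a fold of 3.48 (3.31 to 3.66). ADAMTS6 had 18.9 and 5.31 CPM in shSCD1 and shNT, and ADAMTS15 5.17 and 1.76 CPM. In UMUC3 1 of 17 passed, as lower, where the rule took 2.47% of all genes as higher and 2.18% as lower. This was ADAMTS12, with 2.67 CPM in shSCD1 and 17.97 CPM in shNT. ADAM19 had 30.6 CPM in each UMUC3 library.

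In the plasminogen list, PLAT, the tissue-type plasminogen activator gene, had 782 and 596 CPM in shSCD1 and shNT of SW780 and 1.94 and 2.06 CPM in UMUC3. Of the 12 plasminogen genes measured in UMUC3, SERPINE2 passed the rule, named after its values were seen, with 131 reads in shSCD1 and 17 in shNT. The rule took 4.64% of all genes of UMUC3.

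The list of serine proteases, which also holds coagulation factor and receptor genes, gave 5 of 17 higher in SW780 and none lower. The rule took 1.48% of all genes of SW780 as higher and 1.06% as lower. FAP, a membrane-bound prolyl protease, had 37.1 CPM in shSCD1 and 9.39 CPM in shNT, and it also stands among the fibroblast markers. The kallikrein gene KLK6 had 76.3 and 21.4 CPM in shSCD1 and shNT, a fold of 3.56 (3.27 to 3.88), with 20.3% of its exonic bases shared with AC011483.2 on the other strand, and KLK10 had 7.51 and 1.94 CPM. KLK5 and F2R, a thrombin receptor gene and no protease, named after their values were seen, had 2.90 and 3.48 CPM in shSCD1 and 0.381 and 0.880 CPM in shNT. In UMUC3 PRSS23 was lower, with 92.3 CPM in shSCD1 and 202 CPM in shNT, and no other of 6 passed. There the rule took 4.64% of all genes. In SW780 PRSS23 had 133 and 81.4 CPM in shSCD1 and shNT.

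The list of carboxypeptidases and other cell-surface or secreted peptidases held 1 gene past the rule in each line. These were 1 of 12 with at least 1 CPM in SW780 and 1 of 8 in UMUC3. Over all genes the rule took 2.54% in SW780 and 4.64% in UMUC3. CPVL had 13.5 CPM in shSCD1 and 4.69 CPM in shNT of SW780, and 32.4 and 55.3 CPM in UMUC3. MME, which encodes the membrane endopeptidase neprilysin, had 1338 CPM in shSCD1 and 644 CPM in shNT of UMUC3, a fold of 2.08 (2.04 to 2.12).

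The cystatins, inhibitors of cysteine proteases, went both ways in SW780. CST1 had 96.4 CPM in shSCD1 and 228 CPM in shNT, CST4 38.0 and 84.8 CPM, and CST2 5.32 and 11.7 CPM. These 3 genes are near-identical copies, so how reads were split among them is uncertain. CST6 had 67.9 CPM in shSCD1 and 32.0 CPM in shNT. Cathepsins were not among the genes past the rule in SW780, and in UMUC3 CTSO and CTSS passed as lower, named after their values were seen, with 48 and 5 reads in shSCD1 and 99 and 30 reads in shNT.

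Lists of serpins, of Kazal and Kunitz inhibitors other than SPINK1, and of metalloproteinase regulators held no gene past the rule in either line. The rule took 2.54% of all genes in SW780 and 4.64% in UMUC3, so nothing is read from counts of 0 in such short lists. The regulators include FURIN, a convertase that activates MMP14, with 194 CPM in shSCD1 and 157 CPM in shNT of SW780 and 17.2 and 16.1 CPM in UMUC3. SPINT2, a Kunitz inhibitor of membrane serine proteases, had 1079 and 912 CPM in shSCD1 and shNT of SW780. The list of transcription factors known to act on protease genes holds AP-1 and ETS factors and also EGR1, MAF, RUNX2, NFKB1, RELA and SP1. It gave 0 of 19 past the rule in both lines, against the same shares of all genes. In each line 9 of the 19 factors lay above 0 and 10 below. FOSL2, the highest of them in SW780, had 269 CPM in shSCD1 and 353 CPM in shNT there. ETS1 had 251 and 268 CPM in shSCD1 and shNT of SW780, and 545 and 778 CPM in UMUC3. JUN had 99.4 CPM in shSCD1 and 55.1 CPM in shNT of SW780, and 313 and 430 CPM in UMUC3.

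**Figure D5:**
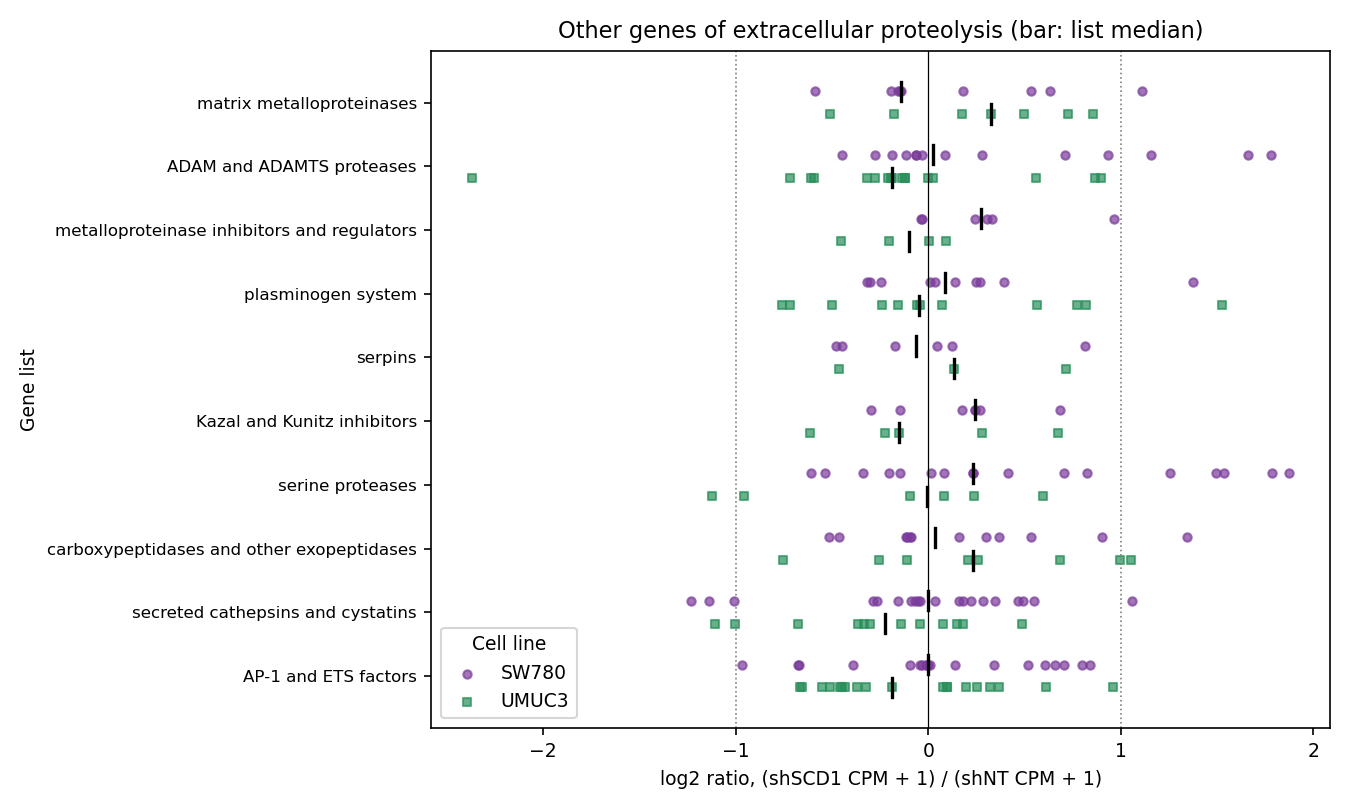
Log2 ratio of each listed gene with at least 1 CPM (points) by gene list, with circles for SW780 and squares for UMUC3, black bars for list medians and dotted lines for the 2-fold rule. The points right of the dotted line are mostly SW780 genes of the ADAM and serine protease lists, and the point farthest left is ADAMTS12 in UMUC3.

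The genes most like each member were sought by the distance between profiles of log2(CPM + 1) over the 4 libraries, after taking off each profile's mean, among 11592 other genes in both tables with 5 CPM or more in any library. For MMP2 they were TMEM45A (0.37), PCDHB16 (0.40) and KLK10 (0.51). KLK10 was at 0.0615 and 0 CPM in UMUC3 shSCD1 and shNT, so its likeness comes from SW780. For CPA4 the nearest were ZNF888 (0.81), ABLIM1 (0.87) and MYO5B (1.14). None of these was as close to CPA4 as the nearest gene was to the other members in both tables, for which the distance ran from 0.03 (EPM2A to MMP14) to 0.37. All 3 nearest genes of CPA4 were lower in UMUC3 shSCD1, which follows from picking them by likeness to CPA4 over these same libraries. In SW780 their CPM was no higher in shSCD1 than in shNT, unlike that of CPA4. TIMP2 had NLRX1 (0.20), IFITM3 (0.20) and NXN (0.25) as its nearest genes.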

How the data were processed

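Total RNA of SW780 and UMUC3 cells, shSCD1 or shNT, went into TruSeq libraries, 1 per group, read on a NovaSeq instrument, per the labels' protocols. Per the submitters' processing notes, hg38 was the build. The aligner, counter, annotation and strand setting are not stated in any source used here. The authors deposited 1 table per line. Its columns headed RPKM hold a signal that the authors brought to one sum per library and did not divide by gene length. Low values (up to 20 reads) were whole multiples of 1 step per column within 0.1 reads (100%; at least 99.9% of all values), so reads were recovered by division, and CPM came from them. Totals were 25549737 (SW780 shSCD1), 34087871 (SW780 shNT), 32540576 (UMUC3 shSCD1) and 22818368 reads (UMUC3 shNT), over 17752 and 30148 genes. A count of 0 allows up to 3 reads (0.117, 0.0880, 0.0922 and 0.131 CPM, in that order). No molecular identifiers are described, so reads need not be separate molecules, and the intervals and floors speak of counting error alone. The deposited log2 fold change and GFOLD value (a cautious log2 fold change, drawn towards 0 where reads are few) are the authors'; the deposited FDR column, at 1 throughout, went unused.

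The members and lists were chosen with earlier results of these data known. Named were SCD, the members, listed genes past the 2-fold rule with at least 5 CPM (up to 5 per list and line), the 2 highest of a list, and the 3 genes nearest to a member; not all of the last kinds are printed, and 1 listed gene is not reported here. Names missing in a table came from Ensembl gene names, which hold 99.9% (SW780) and 99.4% (UMUC3) of identifiers. Positions and exon lengths are from GENCODE 29. Alternatives were the pseudocount, filter, scaling (TMM, DESeq2 size factors, median, genes in both tables), the authors' values, and fits of the 4 libraries together, blocked by cell line, with edgeR 4.0.16 and DESeq2 1.42.0 in R 4.3.3. Recovery, rule, intervals and both fits were tested on simulated data. Python 3.11.15 with scipy 1.17.1 was used.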

Additional observations from a re-analysis of the deposited data

Results flagged for a closer look

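For 5 of the 9 members in both tables, the shSCD1 library lay above the shNT library in one line and below it in the other, with both counting intervals clear of a fold of 1. Over the genes with at least 1 CPM in both lines this held for 20.1%, and CPA4 and MMP2 were chosen by their ratios. With 1 library per group the difference between the lines was not tested. The log2 ratio in SW780 minus that in UMUC3 was 4.25 for CPA4, 2.13 for MMP2, 1.67 for TIMP2 and 0.68 for PLAU. For TIMP1 it was −0.45, and the authors' GFOLD value of TIMP1 in UMUC3 was 0.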

How the results depend on the processing

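No paired analysis was possible because within a line each group has 1 library, so none could be left out either; the only fit that pairs libraries takes the lines as blocks and is given last. The direction of a member's log2 ratio turned in MMP14 in UMUC3, which is 0.07 here and −0.01 (−0.00709) by the authors' deposited log2 fold change. MMP1 in SW780 fell short of the 2-fold rule with a pseudocount of 5 CPM (0.94), and TIMP2 in UMUC3 passed it by the authors' deposited log2 fold change (−1.06), which gave 2 members past the rule there in place of 1. The gap of TIMP3 between lines reversed to 1.22 by that fold change, which rests on 3 and 9 reads in UMUC3. The gap of CPA4, 4.25 here, moved to 3.42 with a pseudocount of 5 CPM and to 4.66 by the authors' deposited log2 fold change. By the latter the gaps of PLAU and MMP14 moved to 0.77 and 0.44, from 0.68 and 0.36 here. Of 133 log2 ratios of members recomputed under alternatives, the other 130 kept their direction and their side of the rule. All-gene counts past the rule moved with the pseudocount of 5 CPM (142 in SW780, 181 in UMUC3), the authors' deposited log2 fold change (632 and 1266) and a filter of 5 CPM (426 in UMUC3). Listed genes past the rule numbered 7 in SW780 and 3 in UMUC3 with a pseudocount of 5 CPM, 11 in UMUC3 with 0.5 CPM, 12 with the authors' deposited log2 fold change and 3 with a filter of 5 CPM. The quotient of metalloproteinase to TIMP transcripts with the longest coding transcript as length, an alternative chosen after seeing the data, was 1.07 and 0.467 in SW780 and 1.24 and 1.04 in UMUC3 (shSCD1, shNT). In fits of the 4 libraries together, blocked by cell line and with 1 residual degree of freedom, edgeR's quasi-likelihood test called 0 of 13087 genes at an adjusted p of 0.05 (425 at an unadjusted p of 0.05), DESeq2 called 27, and neither called a member (the lowest adjusted p was 0.98 by edgeR). MMP1, PLAUR and TIMP3 had unadjusted p-values under 0.05 by edgeR.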
